A study of Mus musculus with 12 samples.

Results

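The genes described here encode the proteins of the small (40S) ribosomal subunit in mouse embryonic fibroblasts (MEFs). They were taken by symbol, as every gene in the count files named Rps and a number (with the endings a, a1 or x), together with Rpsa and Fau, which gave 32 of the 20661 genes in the files. The small subunit binds mRNA and carries the decoding centre, and it is built from a single rRNA and 1 copy of each of these proteins. A ribosome needs the proteins in equal numbers, so how even their synthesis is can be asked of ribosome footprints. Most of the mRNAs begin with a 5′ terminal oligopyrimidine (5′-TOP) motif, a C followed by a run of pyrimidines at the cap, through which mTORC1 and LARP1 are known to control their translation.

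RNAseq and ribosome profiling, which sequences the mRNA pieces that ribosomes shield from nuclease, were each run on 3 groups of passage 4 MEFs. WT-shSCR were wildtype cells with a lentiviral scrambled hairpin, WT-shARF were wildtype cells with a hairpin against ARF, and Arf-/--shSCR were cells of the strain B6.129X1-Cdkn2atm1Cjs/KaiJ with the scrambled hairpin. In that strain a neo cassette stands in place of exon 1β of Cdkn2a, so the cells lack ARF throughout development and are not of the same strain as the wildtype cells, which the labels give as C57BL/6J and the study's methods as B6129SF2/J. There were 2 replicates per group and assay, 12 libraries in all. No source says whether replicates were separate embryos, cultures or transductions, so p-values measure the spread between these libraries.

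Library depth was 1578627 to 3989908 reads on genes for RNAseq and 2544319 to 5157572 for ribosome profiling. Cdkn2a, the gene targeted, went against one label. It had 43.0 and 40.5 RNAseq CPM (reads of a gene scaled to library size by TMM) in WT-shSCR, 26.7 and 31.3 in Arf-/--shSCR, but the libraries labelled WT-shARF had 624 and 658 CPM. The study shows an ARF immunoblot for its knockdown and knockout cells and describes the hairpin as leaving INK4A alone, which the counts cannot check. The count does not separate ARF from INK4A, and every direction given below for WT-shARF rests on that label. The 10 fibroblast markers all had reads in every group, with summed RNAseq levels of 12870 to 17137 CPM. The 14 macrophage markers summed to 663 and 685 RNAseq CPM in WT-shSCR, 324 and 248 CPM in WT-shARF and 46.7 and 80.5 CPM in Arf-/--shSCR, and their summed footprints were 840.5 and 823, 398 and 324, and 58.3 and 84.3 CPM. In RNAseq 12 of the 14 were called lower in the knockout (3.99% of all genes tested) and 7 in WT-shARF (4.17%), and none was at 0 in a group. The 6 epithelial and mesothelial markers summed to 87.8 and 91.1, 53.0 and 66.0, and 144.5 and 169 RNAseq CPM in the same order. In bulk samples fewer cells of a type and less RNA per cell cannot be told apart, and the part of such cells in the changes below was not tested.

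The sequence around the annotated transcription start shows where runs of C and T lie in these genes. RefSeq starts were matched for 24 of the 32 genes, at 28 starts. The windows below run 15 bases before and 15 bases from the annotated first base, which is base 16 of each window, on the strand of the gene, and capitals mark the longest run of C and T that overlaps or lies near the start. The first 5 are genes whose run holds the annotated first base, and the last is a gene without such a run. That base is C in Fau, Rps10, Rps18 and Rps6 and T in Rps24. Another RefSeq start of Rps24, not shown, has A as its first base and no such run.
Fau, chr19:6057932-6057961, plus strand: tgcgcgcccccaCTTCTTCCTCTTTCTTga
Rps10, chr17:27635230-27635259, minus strand: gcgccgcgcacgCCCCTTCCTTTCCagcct
Rps18, chr17:33955651-33955680, minus strand: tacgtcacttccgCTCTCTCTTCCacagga
Rps6, chr4:86857353-86857382, minus strand: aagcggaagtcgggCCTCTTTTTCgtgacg
Rps24, chr14:24490663-24490692, plus strand: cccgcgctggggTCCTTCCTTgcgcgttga
Rps4x, chrX:102189377-102189406, minus strand: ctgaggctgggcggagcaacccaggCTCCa
Coordinates are of GRCm38.p6. The run was 16 bases long in Fau, 13 in Rps10, 11 in Rps18, 10 in Rps6 and 9 in Rps24. A run of at least 5 C or T bases held the annotated first base at 9 of the 28 starts (32.1%), against 10.1% of all 32851 RefSeq starts. At the 40 starts of the large subunit genes 12 had such a run, and at the 27 starts of the mitochondrial small subunit genes 1 did. An annotated start can lie some bases from the one a cell uses, so the absence of a run in a window says only that these letters are not at that base. Of the 32 genes, 29 are on the printed list of 5′-TOP genes that the study used, 27 by the same symbol and 2 under another spelling. The list gives Rps3a, which RefSeq holds as a synonym of Rps3a1, and Rps24a, a symbol that no gene of the files bears and that was read as Rps24. Fau, with the longest run of all, is not on the list.

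The share of reads on these genes was even across groups in RNA and not in footprints. The 32 genes took 2.98% to 3.24% of the reads on genes in the 6 RNAseq libraries. These shares are not scaled by TMM, with which the fitted RNA change in WT-shARF had a median of -0.12 over the 31 genes tested. Of the footprints they took 1.89% and 1.92% in WT-shSCR, 2.41% and 2.43% in WT-shARF, and 2.80% and 2.77% in Arf-/--shSCR. No group overlapped another in footprints, and replicates lay closer together than groups.

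**Figure D1:**
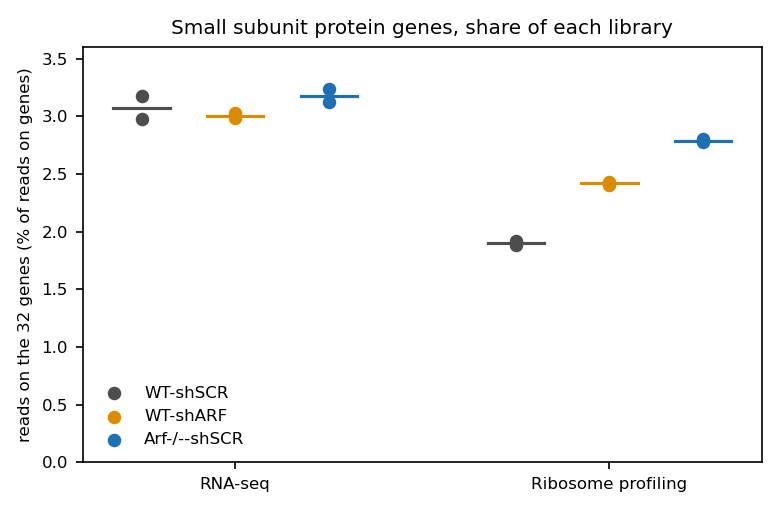
Reads on the 32 small subunit genes as a percentage of all reads on genes (y axis, from 0), for the RNAseq and ribosome profiling libraries of the 3 groups; each point is a library and each bar the mean of 2. The RNAseq libraries sit between 2.98% and 3.24%, while the footprint libraries step up from about 1.9% in WT-shSCR to 2.4% in WT-shARF and 2.8% in Arf-/--shSCR.

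Reads of the large subunit genes moved with them, so the balance of reads between the subunits changed little. There were 0.672 and 0.672 small subunit footprints for each large subunit footprint in WT-shSCR, 0.685 and 0.675 in WT-shARF and 0.678 and 0.683 in Arf-/--shSCR. In RNAseq the ratio was 0.711 to 0.751 over the 6 libraries.

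Rps27, a zinc-binding protein of the platform, had 0 reads in all 12 libraries, and so did Rps27rt, a gene in the files that holds every 28-base window of the Rps27 coding sequence. HTSeq left out reads that aligned to more than 1 place, and for this pair no window is distinct. The other 31 genes had reads in every library and passed the filter on low counts in every test. Their sequences are shared in part too: 92.3% of the windows of Rps23, 55.0% of Rps26 and 35.5% of Rps12 occur in another gene of the files, and at most 8.9% in the rest. Copies not in the files, mostly processed pseudogenes, share more. All windows of Rps6 occur in Rps6-ps4, for example, although Rps6 had 1085 and 1118 RNAseq CPM in WT-shSCR. Levels are therefore less certain between genes than differences of the same gene between groups.

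Levels were compared between genes as CPM per kilobase of the longest annotated coding sequence. In WT-shSCR the footprint density spanned 8.46-fold, from 371 ± 48.0 CPM per kilobase (SD, n = 2) for Rps23, a protein of the decoding centre, to 3140.3 ± 281 for Rps29, a zinc-binding protein of the head. Rps28, at the mRNA exit channel, followed with 2163 ± 253 and Rps18, which forms a bridge to the large subunit, with 1929 ± 207. At the low end Rps15a, a body protein, had 544 ± 14.3 and Rps12, in the beak, had 762 ± 9.93 CPM per kilobase. Of the 31 genes, 28 lay within 2-fold of the median density of 1203 CPM per kilobase. The span rests on the coding length chosen: with the shortest annotated coding sequence Rps18 came to 7717 CPM per kilobase and the span to 20.8-fold. Of the windows of Rps23, 92.3% occur in another gene of the files. With copies outside the files counted too, 0% of the windows were unique in Rps23, and equally in Rps28 and Rps29, the highest in density. In Rps15a 4.13% were unique. Any effect of shared sequence on these densities was not tested. In the order of densities, the libraries of neighbours did not overlap in 8 of 30 neighbouring pairs, so most neighbours did not differ beyond their replicates.

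RNA density had another order. Rpsa, near the mRNA exit, was highest with 3915 ± 322 CPM per kilobase (SD, n = 2), followed by Rps14, on the platform, with 3413 ± 471 and Rps2, at the mRNA entry channel, with 3072 ± 364. Rps23 was again lowest with 417 CPM per kilobase, its replicates at 406 and 427, a 9.39-fold span. Footprint densities were closer together than RNA densities in each group: the SD of the log2 density over the 31 genes was 0.58 for footprints and 0.74 for RNA in WT-shSCR, 0.58 and 0.65 in WT-shARF, and 0.55 and 0.73 in Arf-/--shSCR. The order held across groups at both ends, with Rps29 and Rps28 first and Rps15a and Rps23 last in footprints in all 3 groups.

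**Figure D2:**
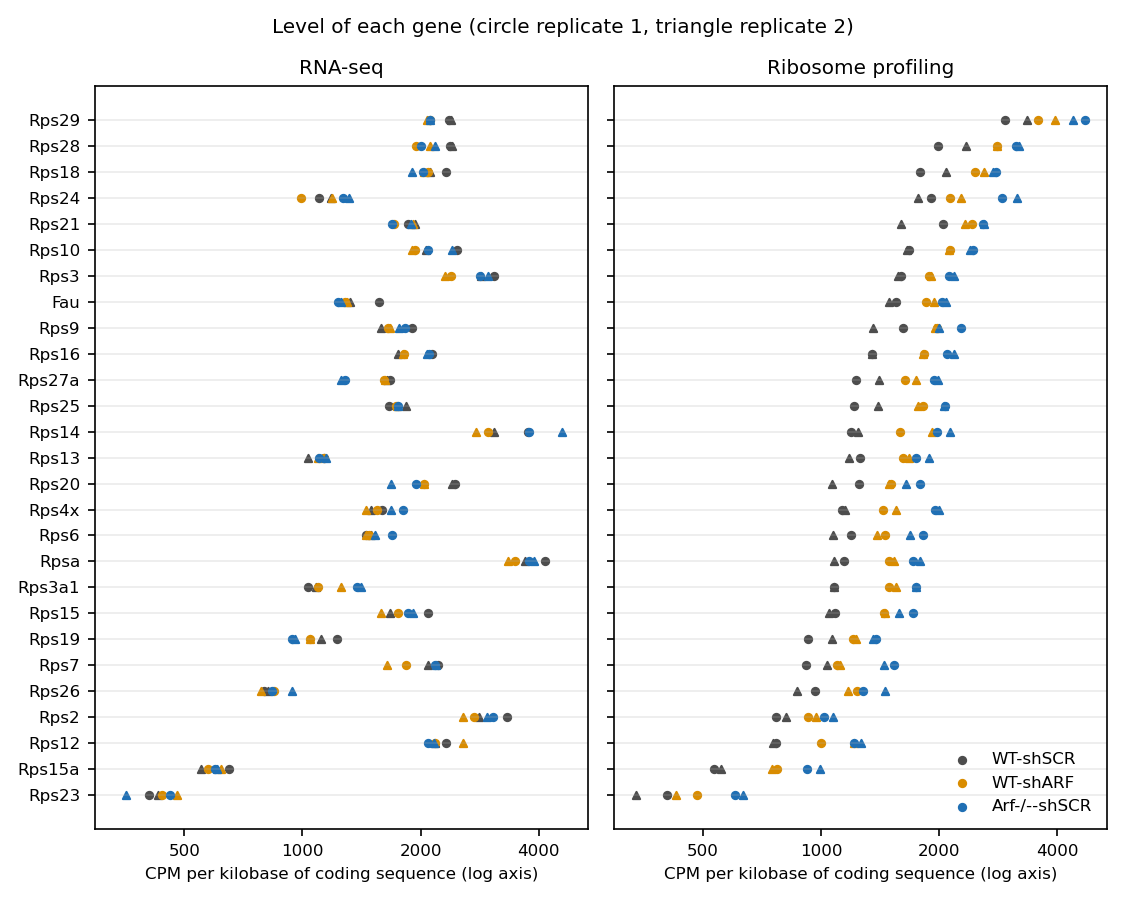
RNA (left) and footprint (right) level of 27 of the 31 genes with reads, as CPM per kilobase of coding sequence on a log axis, ordered by footprint density in WT-shSCR; circles are replicate 1 and triangles replicate 2, coloured by group. The footprint points of each gene step to the right from WT-shSCR to WT-shARF to Arf-/--shSCR, while the RNA points of the groups are mixed, and Rps23 and Rps15a are lowest in both assays.

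Translation efficiency (TE), the log2 of footprint CPM over RNA CPM, spanned a wider range between these genes than between groups. In WT-shSCR it ran from -1.96 for Rps2 to 0.69 for Rps24, a body protein, with a median of -0.38 over the 31 genes against 0.01 over 5877 genes with at least 30 reads in each of the 4 libraries. Rps24 and Rps29 (0.40) were highest, and Rps2, Rpsa (-1.81) and Rps12 (-1.56) lowest. Because the labels do not tie RNA to footprint libraries, each level is given with its range over the 4 possible pairings, which was 0.58 to 0.79 for Rps24 and -2.12 to -1.79 for Rps2. Rps24 and Rps29 were also the highest in the other groups, and Rps2 and Rpsa the lowest, with 1.02 for Rps24 and -1.48 for Rps2 in WT-shARF and 1.23 and -1.52 in Arf-/--shSCR. Across the 31 genes the level in WT-shSCR was lower for longer coding sequences (Pearson's r = -0.51, Spearman's rho = -0.50), a description over genes that share the same 4 libraries.

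Of all genes, 29.2% lay below the median level of the 31 genes in WT-shSCR, 48.9% in WT-shARF and 57.5% in Arf-/--shSCR. The number of the 31 genes with more footprint than RNA CPM was 7, 17 and 21 in that order. Large subunit genes had medians of -0.31, 0.10 and 0.26.

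**Figure D3:**
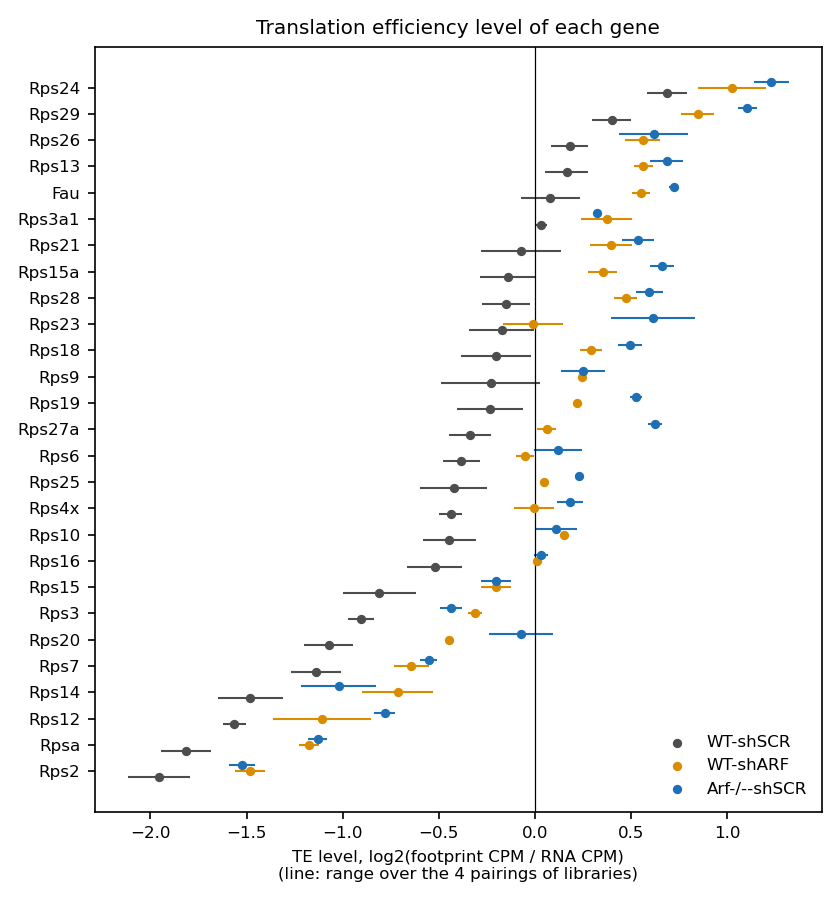
TE level of 27 of the 31 genes, as log2 of footprint CPM over RNA CPM (x axis), in the 3 groups, ordered by the level in WT-shSCR; points are means and lines the range over the 4 pairings of an RNAseq with a ribosome profiling library. The point of WT-shSCR lies left of those of the other groups for every gene. The points span from -1.96 to 0.69 in WT-shSCR, -1.48 to 1.02 in WT-shARF and -1.52 to 1.23 in Arf-/--shSCR.

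The comparison of Arf-/--shSCR with WT-shSCR asks what changed for these genes where ARF is absent. Footprints of all 31 genes with reads rose relative to the genes of the libraries as a whole. Log2 fold changes ran from 0.31 to 0.75 with a median of 0.55, which is 1.46-fold. With this scaling a change shared by all genes would not show. The study reports raised protein synthesis in Arf-/- MEFs, and its authors did not normalize by their yeast spike-in. Of all 10737 genes tested 9.57% were called higher and 8.95% lower (edgeR's quasi-likelihood test, Benjamini-Hochberg adjusted p under 0.05), and the adjusted p of the 31 genes ran from 4.27e-09 to 0.0105. In each of the 31 genes both knockout libraries lay above both controls, as they did in 32.6% of all genes tested. The median over all genes tested was -0.00087. Leaving out either WT-shSCR library ended the calls, since no gene of any kind was then called. The log2 fold changes of the 31 genes were then 0.28 to 0.82 and 0.29 to 0.79 with adjusted p of 0.0724 to 0.239.

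The largest footprint rises were those of Rps15a, Rps4x and Rps14. Rps15a had 208 and 216 footprint CPM in WT-shSCR, 301 and 293 in WT-shARF and 359 and 386 in Arf-/--shSCR. Its log2 fold change in the knockout was 0.75 (SE 0.11, adjusted p = 2.59e-06, edgeR). The groups followed each other without overlap. Rps4x, an X-linked body protein, had 889.7 and 909 CPM in WT-shSCR, 1135 and 1227 in WT-shARF and 1541 and 1571 in Arf-/--shSCR, a log2 fold change of 0.73 (SE 0.07, adjusted p = 4.27e-09, edgeR). Rps14 had 541 and 562 CPM in WT-shSCR, 721 and 869.5 in WT-shARF and 894 and 965 in Arf-/--shSCR, a log2 fold change of 0.69 (SE 0.08, adjusted p = 1.43e-07, edgeR). In these genes too the 3 groups did not overlap.

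Among the smallest rises were those of Rps2 and Fau, whose protein is made as a fusion to a ubiquitin-like protein. Rps2 had 695 and 736 footprint CPM in WT-shSCR and 919.8 and 972 in Arf-/--shSCR (0.34 on the log2 scale, SE 0.08). Fau had 618 and 595 CPM in WT-shSCR and 811 and 829 in Arf-/--shSCR (0.37, SE 0.08). Even at this end the knockout libraries lay above the controls.

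RNA of these genes gave no calls. None of the 31 was called in either direction by edgeR, which called 3.94% of 10659 genes higher and 3.99% lower, or by DESeq2 (2.16% and 2.22%). Without adjustment, p was under 0.05 for 1 higher (11.0% of all genes) and 3 lower (11.3%). Log2 fold changes ran from -0.43 to 0.39 with a median of -0.0043. Both knockout libraries lay above both controls in 9 genes and below them in 8, against 25.9% and 25.7% of all genes tested. The highest were Rps3a1, on the platform near the mRNA exit, and Rps14, and the lowest Rps20 and Rps19, both of the head, and Rps27a, of the beak, which is made as a fusion to ubiquitin. Rps3a1 had 819.8 and 855 RNAseq CPM in WT-shSCR, 867 and 995 in WT-shARF and 1089.6 and 1115 in Arf-/--shSCR (log2 fold change 0.39, adjusted p = 0.101, edgeR). Rps19 had 778 and 708 CPM in WT-shSCR, 665 and 663 in WT-shARF and 598 and 610.3 in Arf-/--shSCR (-0.31, adjusted p = 0.212, edgeR). In both genes the knockout libraries lay apart from the controls, a difference that did not pass the test across all genes.

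**Figure D4:**
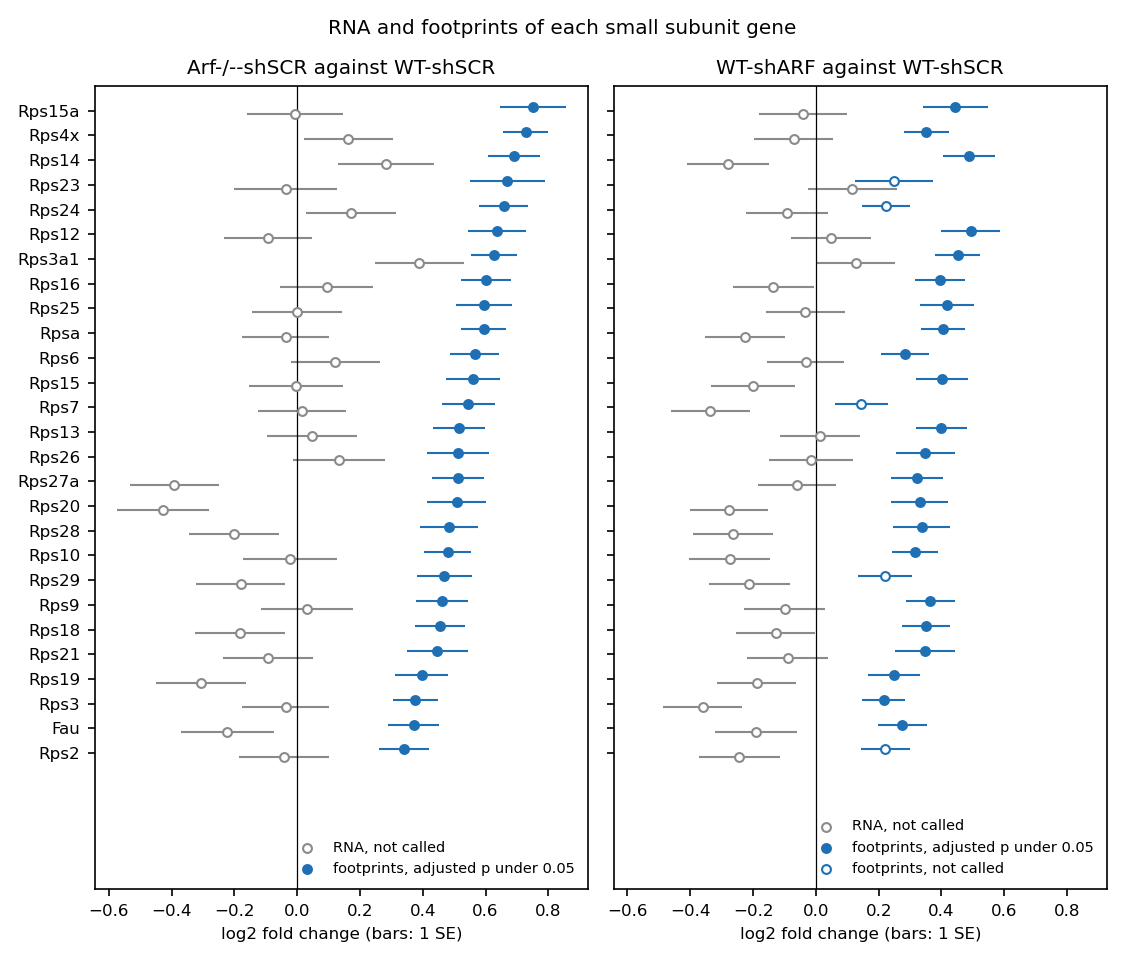
Log2 fold change of RNA (grey) and footprints (blue) for 27 of the 31 genes in Arf-/--shSCR (left) and WT-shARF (right) against WT-shSCR, ordered by the footprint change in the knockout; bars are 1 SE and filled points have an adjusted p under 0.05. All 27 footprint points are filled on the left and 22 on the right, and no RNA point is filled in either panel.

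TE, tested as the difference between the footprint and the RNA change in a single model of 8 libraries, was higher in the knockout in all 31 genes by its fitted value, with a median log2 fold change of 0.51 against -0.04 over all 11314 genes tested. Rps20 and Rps27a passed the test, which called 0.0884% of all genes higher and 0.106% lower. Without the first WT-shSCR replicate the fitted value was above 0 in 30 of the 31, the lowest being -0.018. At an unadjusted p under 0.05, 28 of the 31 were higher (2.88% of all genes) and 0 lower (3.95%). DESeq2 called 21 of the 31 higher (0.521% of all genes) and 0 lower (0.124%). The count of called genes thus depended on the tool.

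Rps20, on chromosome 4 (3831334 to 3835665, minus strand, GRCm38), had 874 and 858 RNAseq CPM in WT-shSCR, 728 and 728 in WT-shARF and 694 and 599 in Arf-/--shSCR. Its footprints were 445 and 381, 538 and 530.2, and 639 and 588 CPM in the same order. Footprints were thus higher and RNA lower in the knockout without overlap, and TE rose by 0.91 (SE 0.16, adjusted p = 0.0168, edgeR). The RNA difference of -0.43 on the log2 scale did not pass the test (adjusted p = 0.0808, edgeR). Rps27a, on chromosome 11 (29545846 to 29548109, minus strand), had 783 and 768 RNAseq CPM in WT-shSCR, 755 and 761 in WT-shARF and 602 and 587 in Arf-/--shSCR, with footprints of 574 and 656, 767 and 815, and 905 and 928 CPM. Its TE rose by 0.87 (SE 0.15, adjusted p = 0.0127, edgeR), and its RNA value was -0.39 (adjusted p = 0.101, edgeR). Without the first WT-shSCR replicate neither gene passed (adjusted p = 0.0720 for Rps20 and 0.131 for Rps27a, edgeR), and without the second Rps20 did not (0.204).

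The third largest fitted TE change was that of Rps15a, 0.73 (SE 0.18, adjusted p = 0.126, edgeR). Its RNA was 254 and 215 CPM in WT-shSCR and 234 and 237 CPM in Arf-/--shSCR, within the range of the controls. Among the smallest were those of Rps3a1 (0.21) and Rps26 (0.35), a protein of the mRNA exit channel. In Rps3a1 the fitted RNA was higher as well, by 0.39, so the footprint change exceeded the RNA change by less.

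The comparison of WT-shARF with WT-shSCR asks the same of cells with a hairpin against ARF. Footprints of 25 of the 31 genes were called higher and of none lower (5.63% of 10307 genes tested were called higher and 5.5% lower). The fitted log2 fold change was above 0 in all 31 genes, with a median of 0.35, or 1.27-fold, and a range of 0.14 to 0.49. Both WT-shARF libraries lay above both controls in all 31 genes, as in 28.2% of all genes tested. Among the 6 that did not pass were Rps2, Rps7, Rps23, Rps24 and Rps29. The count was 14 without the first WT-shARF replicate (2.91% of all genes higher and 3.16% lower in that fit). Both comparisons use the same WT-shSCR libraries.

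Rps12, Rps14 and Rps3a1 rose most. Rps12 had 341 and 335 footprint CPM in WT-shSCR, 442 and 537 in WT-shARF and 538 and 559 in Arf-/--shSCR, a log2 fold change of 0.49 in WT-shARF (SE 0.09, adjusted p = 3.52e-04, edgeR). Rps3a1 had 855 and 855 CPM in WT-shSCR, 1176 and 1230.2 in WT-shARF and 1381 and 1379.7 in Arf-/--shSCR (0.45, SE 0.07, adjusted p = 2.98e-05, edgeR). The second WT-shARF library of Rps12 nearly reached the knockout level and the first did not. Among the smallest values were those of Rps7, a body protein, with 0.14, and Rps3, at the mRNA entry channel, which passed with 0.22 (SE 0.07, adjusted p = 0.0345, edgeR). Rps7 had 533 and 603 CPM in WT-shSCR, 640.3 and 650.4 in WT-shARF and 890.2 and 841 in Arf-/--shSCR. Rps3 had 1164 and 1145 CPM in WT-shSCR, 1372 and 1387 in WT-shARF and 1541 and 1590.5 in Arf-/--shSCR.

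RNA in WT-shARF was lower by its fitted value in 25 of the 31 genes, with a median of -0.12, and none was called by edgeR (3.11% of 10503 genes were called higher and 4.17% lower) or by DESeq2 (1.18% and 1.88%). Unadjusted p under 0.05 was reached by 6 lower (11.3% of all genes) and 0 higher (9.77%). Both libraries lay above both controls in 3 genes and below them in 14, against 26.4% and 23.4% of all genes. The lowest were Rps3 (-0.36, adjusted p = 0.0762, edgeR), Rps7 (-0.34) and Rps14 (-0.28), and the highest Rps3a1 (0.13) and Rps23 (0.12). Rps3 had 2244 and 2079.9 RNAseq CPM in WT-shSCR, 1748 and 1682 in WT-shARF and 2067 and 2170.2 in Arf-/--shSCR. Rps7 had 1286 and 1215, 1066 and 954, and 1267 and 1273 CPM in that order. For both genes it was WT-shARF that stood lowest, with the knockout near the controls. Without the second WT-shSCR replicate 4 of the 31 were called lower (4.51% of all genes in that fit, with 3.27% higher).

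The fitted TE change in WT-shARF was above 0 in all 31 genes, with a median of 0.46 against 0.01 over 11289 genes tested, and in 30 of them without the first WT-shARF or the second WT-shSCR replicate. Rps14 was called higher (0.78, SE 0.15, adjusted p = 0.0448, edgeR; 0.0354% of all genes were called higher and 0.0% lower). DESeq2 called 17 of the 31 higher (0.416% of all genes) and 0 lower (0.0266%), and gave no adjusted p for 2 of them. At an unadjusted p under 0.05, 29 of the 31 were higher (3.81% of all genes) and 0 lower (2.84%). Rps14 had 1697 and 1395 RNAseq CPM in WT-shSCR, 1343 and 1255 in WT-shARF and 1712 and 2076 in Arf-/--shSCR. Its RNA was thus lowest in WT-shARF and highest in the knockout, while its footprints were higher in both. Its TE did not pass without the second WT-shARF replicate (0.58, adjusted p = 0.692, edgeR) or without the first WT-shSCR replicate (0.60, adjusted p = 0.0634). With either WT-shSCR replicate left out, 3 of the 31 genes were called, where over all genes 0.128% were called higher and 0.0766% lower without the first and 0.101% and 0.0169% without the second. Rps14 also did not pass with all groups in one fit (adjusted p = 0.112, edgeR) or with upper quartile scaling (0.0621). Rpsa (0.64) and Rps20 (0.62) followed, and Rps23 (0.14) and Rps24 (0.32) were among the lowest.

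Arf-/--shSCR and WT-shARF were compared directly, without the WT-shSCR libraries. Fitted footprint changes were above 0 in all 31 genes, with a median of 0.17, and both knockout libraries lay above both WT-shARF libraries in all of them (27.4% of all genes). Without the first Arf-/--shSCR replicate 30 of the 31 were above 0, and the lowest was -0.0035. In 8 the footprints were called higher in the knockout and in none lower (3.93% and 4.3% of 10941 genes). Among them were Rps24 (0.43, SE 0.06, adjusted p = 2.64e-04, edgeR), Rps23 (0.41), Rps7 (0.40), Rps4x (0.37), Rps15a (0.30), Rps6 (0.27) and Rps29 (0.24). Rps6, the substrate of S6 kinase, had 889.7 and 802 footprint CPM in WT-shSCR, 1084 and 1034 in WT-shARF and 1355 and 1260.3 in Arf-/--shSCR. Rps24 had 761 and 706, 852 and 909, and 1155 and 1262 CPM, so that its step from WT-shARF to the knockout was larger than that from WT-shSCR to WT-shARF. With either WT-shARF replicate left out none of the 31 was called, and over all genes 0 and 1 were.

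In RNA, Rps14 was the only one of the 31 called between these groups, higher in the knockout by 0.55 (SE 0.13, adjusted p = 0.0329, edgeR; 1.38% of 10632 genes were called higher and 1.19% lower). DESeq2 called 1 of the 31 too (1.08% of all genes higher, 0.752% lower). At an unadjusted p under 0.05, 5 were higher (8.0% of all genes) and 1 lower (8.36%). The groups did not overlap in 17 genes higher and 6 lower in the knockout, against 22.2% and 24.9% of all genes. Rps14 did not pass without the first or without the second WT-shARF replicate (adjusted p = 0.245 and 0.437, edgeR), and without the first Arf-/--shSCR replicate 2 of the 31 were called (4.07% of all genes higher, 3.1% lower). In TE none was called by edgeR (0.0172% of 11632 genes were called higher and 0.0258% lower), and DESeq2 called 1 higher (0.0688% of all genes higher, 0.0602% lower). At an unadjusted p under 0.05, 3 were higher (3.71% of all genes) and 1 lower (3.86%), and the median was 0.08.

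Whether the genes of the subunit kept their proportions of reads was tested with the summed reads of the 32 genes as the library size. A change is then a change of a gene's share of these reads, and protein was not measured here. In footprints of the knockout 1 of the 31 genes was called higher and 1 lower relative to the sum. The higher was Rps4x, which rose by 0.20 (SE 0.07, adjusted p = 0.0273, edgeR). Of all 10737 genes tested, 1.76% were called higher and 40.5% lower on this scale, and at an unadjusted p under 0.05, 2 of the 31 were higher (2.4% of all genes) and 3 lower (47.4%). The footprint sum itself was higher in the knockout, and the median over all genes tested was -0.53 on this scale. Because so many genes were called lower, the adjustment of p over all genes was mild. No adjustment over the 31 genes alone was made. Rps4x made up 4.59% and 4.72% of the subunit footprints in WT-shSCR, 4.63% and 4.81% in WT-shARF, and 5.29% and 5.38% in Arf-/--shSCR. Its share stood apart from both other groups in the knockout. DESeq2 called 1 of the 31 higher, Rps4x, and 0 lower (1.06% of all genes higher, 31.5% lower), and Rps4x did not pass when any of the 4 libraries was left out (adjusted p 0.0727 to 0.172, edgeR).

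The other 29 genes were not called, with log2 changes relative to the sum of -0.19 to 0.22. The largest of them, Rps15a with 0.22, had an adjusted p of 0.0889 and an SE of 0.10, which is the size of departure that these libraries could leave undetected. In WT-shARF none of the 31 was called relative to the sum by edgeR (1.36% of 10307 genes higher and 20.3% lower) or DESeq2 (0.796% and 14.1%). There 2 of the 31 were lower at an unadjusted p under 0.05 (31.8% of all genes) and 0 higher (2.76%), and the values ran from -0.19 to 0.16 for Rps12. In RNA none was called relative to the sum by edgeR or DESeq2 in either comparison, where edgeR called 2.51% of all genes higher and 2.82% lower in the knockout and 5.07% and 1.7% in WT-shARF. For DESeq2 those shares were 1.87% and 2.01%, and 2.02% and 0.8%. At an unadjusted p under 0.05, 1 gene was higher (9.81% of all genes) and 2 lower (10.3%) in the knockout, and 1 higher (16.5%) and 0 lower (5.7%) in WT-shARF. Values ranged from -0.44 to 0.38 in the knockout and from -0.20 to 0.28 in WT-shARF.

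**Figure D5:**
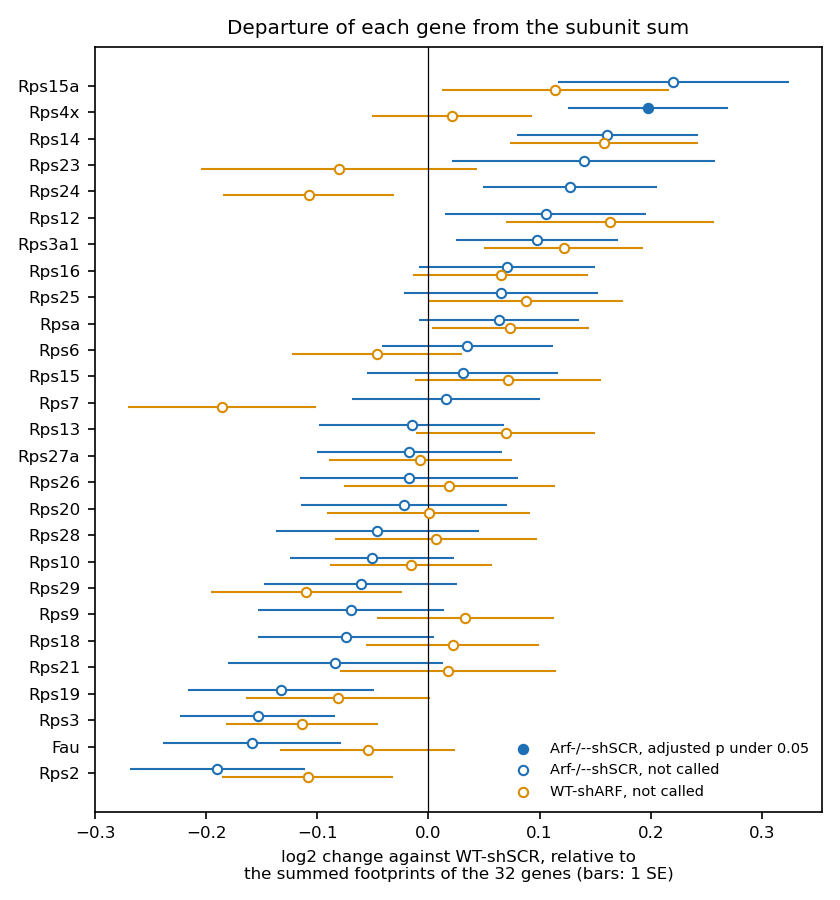
Log2 change of the footprints of 27 of the 31 genes against WT-shSCR relative to the summed footprints of the 32 genes (x axis), in Arf-/--shSCR (blue) and WT-shARF (orange), ordered by the knockout; bars are 1 SE and filled points have an adjusted p under 0.05. All plotted values lie between -0.19 and 0.22, and Rps4x in the knockout is the filled point.

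The spread of changes over the 31 genes was set beside the spread between replicates. Between a knockout and a control footprint library, the SD of the log2 ratio over the 31 genes was 0.12 to 0.16 in the 4 pairs, and between replicates it was 0.10 to 0.16 in the 3 groups. In RNAseq it was 0.19 to 0.23 between knockout and control and 0.11 to 0.13 between replicates. Between WT-shARF and control it was 0.11 to 0.14 in footprints and 0.12 to 0.20 in RNAseq. In footprints, then, the ratios of the genes to one another varied about as much between groups as between replicates, and in RNA the knockout pairs lay above the replicate pairs. The footprint and RNA changes of the genes in the knockout were related over the 31 genes with r = 0.40 (Pearson) and rho = 0.47 (Spearman), a description of values that share the same 8 libraries.

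The values were also set out by position in the subunit. Of the 31 genes, 14 encode proteins of the head and 17 of the body and platform. The median footprint change in the knockout was 0.51 for the head and 0.55 for the body, and in WT-shARF it was 0.33 and 0.35. Reads on head genes were 43.0% and 44.9% of the subunit footprints in WT-shSCR, 43.9% and 43.8% in WT-shARF and 43.3% and 42.9% in Arf-/--shSCR. In RNAseq their share was lower in the knockout, with 41.3% and 41.8%, 40.5% and 40.9%, and 38.5% and 39.1% in that order. Median RNA changes for head and body were -0.06 and 0.05 in the knockout and -0.19 and -0.09 in WT-shARF. Median TE changes were 0.59 and 0.44 in the knockout and 0.52 and 0.43 in WT-shARF. The difference between head and body was not tested. The 28 genes with reads on the printed 5′-TOP list had a median footprint change in the knockout of 0.55, and the 3 that are not on it, Fau and Rps27a among them, one of 0.51. All 3 were called.

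Genes close to the subunit but outside the rule gave a comparison. Gnb2l1 (Rack1), a scaffold protein bound to the head of the 40S subunit, had 1594 and 1502 footprint CPM in WT-shSCR, 1861 and 1867 in WT-shARF and 2165 and 2017 in Arf-/--shSCR. Its footprints rose by 0.37 in the knockout (SE 0.07, adjusted p = 1.23e-04, edgeR) and by 0.23 in WT-shARF (adjusted p = 0.0181, edgeR). Rps27l, a paralog of Rps27 and a known p53 target, did otherwise in footprints. It had 287 and 249 footprint CPM in WT-shSCR, 285 and 249 in WT-shARF and 266 and 276 in Arf-/--shSCR, a log2 fold change of -0.05 in the knockout (adjusted p = 0.820, edgeR). Its RNA fell by 0.53 in the knockout (SE 0.15, adjusted p = 0.0372, edgeR), with 338 and 309 CPM in WT-shSCR, 240.2 and 265 in WT-shARF and 242 and 208 in Arf-/--shSCR. The fitted TE change of Rps27l was 0.45 in the knockout and 0.34 in WT-shARF, beside medians of 0.51 and 0.46 over the 31 genes. For Gnb2l1 it was 0.21 and 0.42. None of these TE changes passed (adjusted p 0.411 to 0.824, edgeR).

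Of the 45 large subunit genes tested, 45 were called higher in footprints in the knockout and 34 in WT-shARF, with medians of 0.49 and 0.31. The 29 small subunit genes of the mitochondrial ribosome belong to a ribosome separate from the cytosolic one. Of these, 1 was called higher and 0 lower in footprints in each comparison, with medians of 0.10 and 0.11. Over all genes tested 9.57% were called higher and 8.95% lower in footprints of the knockout, and 5.63% and 5.5% in WT-shARF. Of 35 genes for small subunit assembly, 14 were called higher in footprints in the knockout and 2 in WT-shARF. Fitted footprint changes were above 0 in 34 and 30 of the 35. The RNA of these assembly genes had medians of 0.37 and 0.22, with 4 called higher in each (3.94% and 3.11% of all genes). Of 9 listed 5′-TOP genes outside the ribosome, 9 and 7 were called higher in footprints, with medians of 0.46 and 0.32. In knockout RNA, 2 of these 9 were called higher and 1 lower (3.94% and 3.99% of all genes). Median fitted TE changes in the knockout and in WT-shARF were 0.22 and 0.28 for these 9 genes. They were 0.47 and 0.42 for the large subunit, 0.03 and 0.16 for the mitochondrial genes and -0.05 and 0.07 for the assembly genes. The knockout footprints of the mitochondrial subunit genes thus stood near the median of all genes tested, and those of the other lists above it.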

How the data were processed

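MEFs of 3 groups were measured by RNAseq and ribosome profiling. Per the methods, the authors made footprints with RNase T1, clipped and split reads, removed rRNA and noncoding RNA, aligned to mm10 with TopHat and counted unique reads on coding sequences with HTSeq. They deposited raw counts per gene. Tool versions are not given in the sources used here. RNase T1 and the alkaline hydrolysis of the RNAseq samples cut at different bases, and any effect on TE between genes was not tested. UMIs were clipped, and no removal of duplicates is named. Not uniquely aligned were 79.2% to 81.4% of RNAseq and 46.3% to 52.9% of footprint alignments.

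Changes were tested with edgeR 4.0.16 in R 4.3.3 (TMM, filterByExpr, quasi-likelihood F test, Benjamini-Hochberg over all genes tested), RNA and footprints over 4 libraries, and TE over 8 with an interaction term between assay and group. SEs come from the F statistic. CPM values use TMM factors over all 12 libraries. Annotation was GENCODE M21 and RefSeq GRCm38.p6. The steps were tested on simulated data. Alternatives were DESeq2 1.42.0, other scalings, no filter, all groups in one fit, replicate and culture blocks, another coding length and leaving out each replicate. Members and lists were chosen with earlier results of these data known. Named are genes called in TE or relative to the subunit sum, the 3 largest and 3 smallest changes of each measure, and the highest and lowest densities and TE levels. Genes called between Arf-/--shSCR and WT-shARF and the members absent from the printed list were named after their values were seen. Some members enter the counts and medians but are not reported singly here.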

Additional observations from a re-analysis of the deposited data

Results flagged for a closer look

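Changes against WT-shSCR differed between Arf-/--shSCR and WT-shARF, by the test of the difference itself (edgeR, adjusted p under 0.05), in the results below. In RNA this was Rps14, with a log2 difference of 0.55. In footprints they included Rps24 (0.43), Rps23 (0.41), Rps7 (0.40), Rps4x (0.37), Rps15a (0.30), Rps6 (0.27) and Rps29 (0.24). All were higher in Arf-/--shSCR, in 2 of 2 libraries, and none passed when either WT-shARF replicate was left out. WT-shARF rests on a label that the Cdkn2a counts go against, while the study shows an immunoblot of ARF for its knockdown and knockout cells. With 2 libraries per group no check for a sample far from the others was possible.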

How the results depend on the processing

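The rise of footprints in Arf-/--shSCR kept its direction in all 31 genes under every alternative, but not its call, and called counts for TE depended most on the tool. For TE in the knockout, 2 genes were called, against 21 with DESeq2, 19 with no filter, 12 with all groups in one fit and 4 with RLE scaling, upper quartile scaling or a culture block. For fits with no filter, all groups together, other scalings or blocks, the shares of all genes called are not given here. Counts of the 31 genes in those fits therefore do not show whether they stood out from all genes. Leaving out replicates gave 0 to 2, and the median of 0.51 was 0.63 with no filter and 0.48 to 0.61 without a replicate. For TE in WT-shARF, 1 was called, against 17 with DESeq2, 7 with no filter, 8 with a replicate block or culture block, 0 with all groups or upper quartile scaling, and 0 to 3 without a replicate (median 0.38 to 0.50). For TE between them 0 were called, against 1 with DESeq2, no filter or a culture block and 0 to 1 without a replicate (median 0.12 with no filter, 0.049 to 0.14 without a replicate). RNA calls were 1 in the knockout with all groups (median -0.059 to 0.093 without a replicate), and in WT-shARF 1 with no filter, 2 with a replicate block and 0 to 4 without a replicate (median -0.21 to -0.041). RNA calls between them were 0 with a replicate block and 0 to 2 without a replicate (median 0.10 with upper quartile scaling, 0.10 to 0.12 without a replicate). Footprint calls without a replicate were 0 to 31 in the knockout, 14 to 23 in WT-shARF and 0 to 9 between them. The knockout footprint median was 0.58 with no filter, 0.51 with upper quartile scaling and 0.52 to 0.60 without a replicate. Relative to the subunit sum, 1 gene was called in knockout footprints with DESeq2 and 0 to 1 without a replicate, and 0 to 1 without a replicate in WT-shARF RNA or footprints. The 8.46-fold span of footprint density was 20.8-fold with the shortest coding sequence and 7.26 to 9.90 without a replicate. Signs reversed for TE of Rps23 in WT-shARF without WT-shARF replicate 1 (-0.012) or WT-shSCR replicate 2 (-0.037, with up to 0.32 without another). One further value each fell below 0 in TE of the knockout without WT-shSCR replicate 1 (-0.018) and in footprints between the groups without Arf-/--shSCR replicate 1 (-0.0035). The causes were not tested. Same-numbered libraries did not deviate together (correlations of -0.02 to 0.03 over all genes tested, and over genes with at least 30 reads in each library -0.12 in RNA of the knockout, -0.11 in RNA between the groups and 0.03 to 0.05 in the other comparisons), so the numbers were not taken as pairs. With the replicate block the footprint calls in the knockout were 31 and the median 0.55. A crossed pairing, added after seeing the data, called 4 in TE of the knockout, 3 in RNA of the knockout and 6 in RNA between the groups. The shares of all genes called with it are not given here either. With 2 libraries per group, SEs of 0.07 to 0.12 on the log2 scale for knockout footprints limit what could be detected.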
